A study of Sus scrofa with 12 samples.

Results

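The miR-200 family and other microRNAs (miRNAs) of epithelial cells were described in pig ovaries. Members were chosen by name alone, as every row of the mature miRNA table named miR-200a, miR-200b, miR-200c, miR-141, miR-429, miR-203 (also miR-203a and miR-203b) or miR-205, on either arm. This rule found 4 of the 457 mature miRNAs listed: miR-200b, miR-429, miR-141 and miR-205. The other names of the rule had no row here and were not analysed here. All 4 members were among the 353 miRNAs tested, which had at least 1 RPM (reads scaled to the library total) in at least 3 libraries. Whole left ovaries were taken from commercial sows 4 days after delivery number 4, and each was frozen and sequenced as bulk tissue. The ovaries ZD2, ZD3 and ZD12 came from sows with a small litter size (SLS, mean 8.48 piglets per litter), and ZD5, ZD7 and ZD8 from sows with a large litter size (LLS, mean 16.19). No treatment or allele was given for either group. Each ovary gave 1 small RNA library and 1 library for gene expression, so that n = 3 ovaries per group throughout.

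The miR-200 family is known for its high levels in epithelial cells. Its members pair through their seed, the bases near the 5′ end, with the 3′ untranslated regions (UTRs) of ZEB1 and ZEB2, repressors of the cadherin gene CDH1 and of other epithelial genes. ZEB1 and ZEB2 in turn repress transcription of the family, so that epithelial cells usually hold much miR-200 and little ZEB, and mesenchymal cells the reverse. Vertebrate genomes carry the family in 2 clusters. miR-205 is not a relative by sequence, but it also marks epithelia, above all stratified and glandular ones. In the ovary, the surface epithelium and the granulosa cells of follicles are the tissues of epithelial form, while the corpus luteum, theca and stroma make up much of the rest. In bulk tissue, fewer cells of a type and less RNA per cell cannot be told apart.

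The mature sequences are shown because the seeds sort the members, and seed bases 2 to 8 are in capitals. They were read from the deposited table.
miR-200b: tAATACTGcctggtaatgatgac
miR-429: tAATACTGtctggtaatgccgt
miR-141: tAACACTGtctggtaaagatg
miR-205: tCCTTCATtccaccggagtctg

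miR-200b and miR-429 had the same seed. Counted from 1 at the 5′ end, miR-429 differed from miR-200b by C9T, A19C, T20C and A22T, and the other 18 of 22 compared bases were identical. miR-141 differed from miR-200b by T4C inside the seed and by C9T and T17A outside it, with 18 of 21 bases identical. The seed of miR-205 was unlike these. Each sequence matched 1 place in the Sscrofa11.1 genome.

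miR-200b lay at chr6:63490178-63490200 on the plus strand, between LOC110261078 and TTLL10, and no annotated gene covered it. miR-429 lay 1792 nt downstream, at chr6:63491970-63491991 on the same strand and inside the annotated gene MIR429. miR-141 lay at chr5:63757579-63757599 on the minus strand, 1099 nt from PHB2 and 4510 nt from PTPN6. miR-205 lay at chr9:133517119-133517140 on the minus strand, inside MIR205 and in an intron of LOC102159171, a long noncoding RNA of the opposite strand.

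The small RNA libraries held between 3537619 and 9854086 reads, of which 97.6% to 98.7% were on listed miRNAs, and the gene libraries between 32272803 and 60903268 reads. The ovary ZD8 stood apart from the rest. Its miRNA profile was least like the other libraries (mean Spearman correlation across tested miRNAs 0.936, against 0.957 to 0.970), and its gene library was the smallest. STAR, which moves cholesterol into mitochondria for steroid synthesis, was at 26.4 FPKM (fragments scaled to transcript length and library total) in ZD8, while the remaining 5 ovaries held 2542 to 5418 FPKM. All 6 genes of a luteal cell list were lowest in ZD8. The oocyte gene GDF9 was between 5.41 and 40.6 FPKM and the granulosa gene FOXL2 between 6.11 and 37.8 FPKM. Not every marker of these cells was found in every ovary, since CYP19A1, the estrogen synthase, was listed at 0 in all ovaries but ZD5 (0.0137 FPKM) and ZP2, of the egg coat, at 0 in ZD3 and ZD7.

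miR-200b was the most abundant member. Among SLS sows it was at 218 RPM in ZD2, 146 RPM in ZD3 and 377 RPM in ZD12, and in the LLS ovaries at 173 RPM in ZD5, 83.7 RPM in ZD7 and 128 RPM in ZD8. These values rested on 517 to 3717 reads, and it ranked between 99 and 171 of the listed miRNAs in its library. ZD12 was highest and ZD7 lowest, and the groups overlapped because ZD5 lay above ZD3. SLS ovaries had a mean of 247 ± 118 RPM and LLS ovaries one of 128 ± 44.8 RPM (SD, n = 3 ovaries each).

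miR-429, which shares the seed of miR-200b, was far less abundant. It was at 9.24, 5.94 and 12.1 RPM in ZD2, ZD3 and ZD12 of the SLS group, and at 7.14, 3.39 and 4.26 RPM in ZD5, ZD7 and ZD8 of the LLS group. The order of the 6 ovaries was the same as for miR-200b, with ZD12 first, then ZD2, ZD5, ZD3, ZD8 and ZD7. Only 21 to 119 reads stood behind each value, so the exact Poisson intervals of neighbours in this order overlapped. SLS ovaries had a mean of 9.09 ± 3.07 RPM and LLS ovaries one of 4.93 ± 1.96 RPM.

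miR-141, the member of the other cluster, was at 108, 67.8 and 180 RPM in ZD2, ZD3 and ZD12, and at 85.5, 47.4 and 84.2 RPM in ZD5, ZD7 and ZD8. ZD12 was again highest and ZD7 lowest, and only ZD3 and ZD8 changed places against the order of miR-200b. The values for ZD5 and ZD8 did not differ beyond counting error. SLS ovaries had a mean of 119 ± 56.9 RPM and LLS ovaries one of 72.4 ± 21.6 RPM.

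miR-205 followed another order. It was at 46.2, 21.5 and 21.01 RPM in ZD2, ZD3 and ZD12, and at 6.65, 25.2 and 55.5 RPM in ZD5, ZD7 and ZD8, on 41 to 482 reads. Both the lowest and the highest ovary were in the LLS group, and ZD3, ZD12 and ZD7 had overlapping counting intervals. SLS ovaries had a mean of 29.6 ± 14.4 RPM and LLS ovaries one of 29.1 ± 24.6 RPM. Reads carried no molecular identifiers, so all intervals given here cover counting error only.

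**Figure D1:**
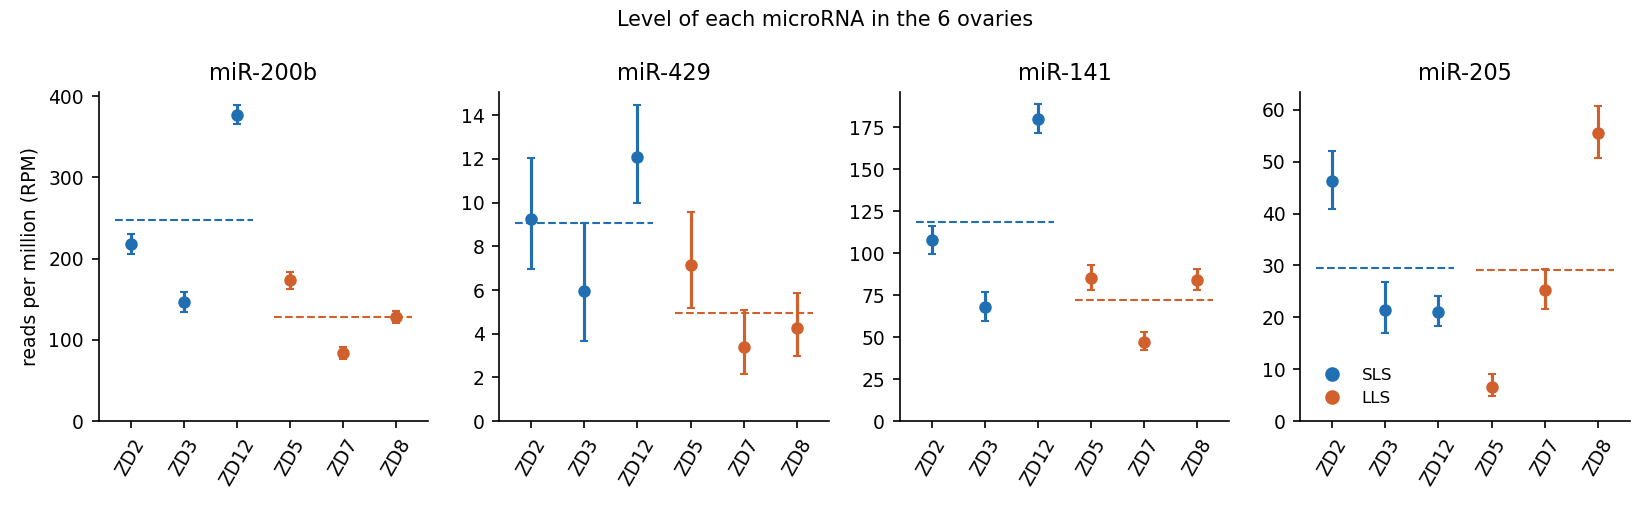
RPM of miR-200b, miR-429, miR-141 and miR-205 in the 6 ovaries, on a linear axis from 0 with its own scale for each miRNA. Points are ovaries, bars are exact 95% Poisson intervals of the reads and dashed lines are group means. ZD12 was highest and ZD7 lowest for the first 3 miRNAs, while miR-205 was lowest in ZD5 (6.65 RPM) and highest in ZD8 (55.5 RPM).

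The first question of the design was whether the ovaries of LLS sows differed from those of SLS sows. None of the 4 members passed the test, and neither did any other miRNA. With limma on log2(RPM + 1), 0 of 353 tested miRNAs were called (0%), where a call needed an adjusted p under 0.05 and a log2 fold change beyond 1 in either direction, and 0 had an unadjusted p under 0.05. On whole reads, edgeR and DESeq2 also called 0, with 4 and 7 miRNAs at an unadjusted p under 0.05.

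The point estimates of the 3 family members were all lower in LLS. The log2 fold change, LLS minus SLS, was -0.89 for miR-200b (SE 0.49, 95% interval -2.02 to 0.23), -0.77 for miR-429 (SE 0.45, -1.80 to 0.27) and -0.64 for miR-141 (SE 0.51, -1.80 to 0.52). The adjusted p from limma was 0.997 for each. Exact two-sided permutation tests gave p = 0.2 for miR-200b, 0.2 for miR-429 and 0.3 for miR-141, where 3 ovaries against 3 cannot go below 0.1. None of the 4 members had groups that did not overlap, as had 10 of the 353 tested miRNAs (2.83%). A log2 fold change below -0.5 was found for these 3 members and for 28 of 353 tested miRNAs (7.93%), a limit that was chosen after the values were seen. The median log2 fold change was -0.77 over the 3 family members and -0.01 over all tested miRNAs. Without ZD12 the log2 fold change of miR-200b was -0.53 and that of miR-141 -0.29, and without ZD8 they were -0.92 and -0.77, where the median over all miRNAs then tested was 0.16.

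For miR-205 the log2 fold change was -0.35 (SE 0.76, 95% interval -2.08 to 1.38), with an adjusted p of 0.997 in limma and p = 0.9 in the exact permutation test. Its sign was not stable. It was 0.43 without ZD5, 0.01 without ZD2 and -1.01 without ZD8, and with all 6 ovaries it was 0.11 in edgeR and 0.17 in DESeq2.

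**Figure D2:**
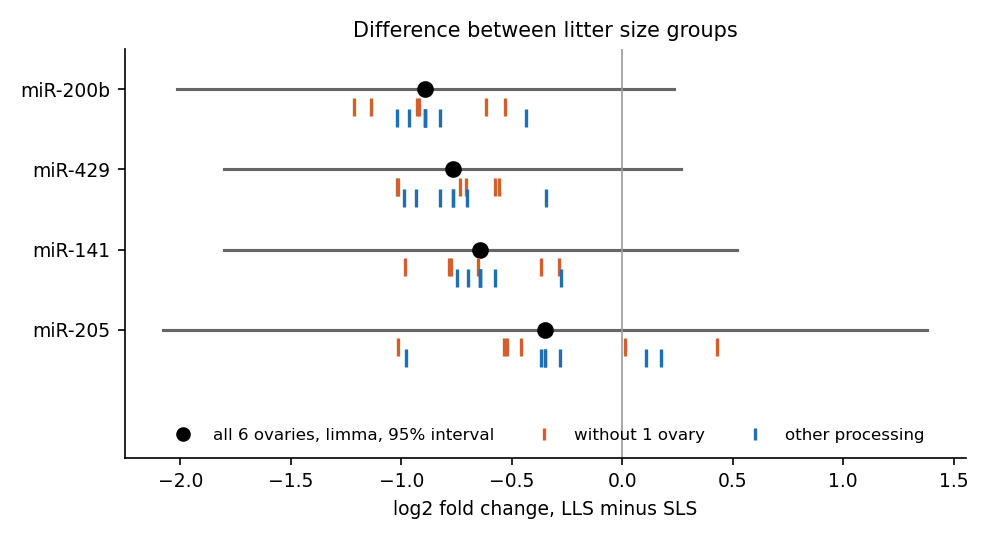
Log2 fold change (LLS minus SLS) of the 4 members. Black points with lines are limma estimates over all 6 ovaries with 95% intervals, orange ticks are estimates without 1 ovary and blue ticks are estimates under other processing. All 4 intervals include 0, and only the ticks of miR-205 lie on both sides of it.

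The groups overlapped, and the ovaries differed from each other. The highest ovary exceeded the lowest 4.51 times for miR-200b, 3.56 times for miR-429, 3.80 times for miR-141 and 8.34 times for miR-205. The median of this ratio over 349 tested miRNAs above 0 in every library was 3.10, with quartiles of 2.17 and 5.49, so that the family lay inside the quartiles and miR-205 above them.

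Summed over miR-200b, miR-429 and miR-141, the family was at 335, 220 and 569 RPM in ZD2, ZD3 and ZD12, and at 266, 134 and 217 RPM in ZD5, ZD7 and ZD8. This was between 0.0134% and 0.0569% of a library. SLS ovaries had a mean of 374.6 ± 178 RPM and LLS ovaries one of 206 ± 66.4 RPM, with p = 0.2 in the exact two-sided permutation test. miR-200b made up 59.1% to 66.5% of the sum, miR-141 30.8% to 38.9% and miR-429 1.97% to 2.76%.

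Ratios within a library do not depend on its total. There were between 23.6 and 31.2 reads of miR-200b for each read of miR-429, the pair of the chromosome 6 cluster, and all 6 intervals of this ratio overlapped. The ratio was 26.5 ± 4.16 in SLS and 26.3 ± 3.24 in LLS (n = 3 each, exact permutation p = 1). Between the clusters, the ratio of miR-200b to miR-141 was 2.02, 2.15 and 2.10 in ZD2, ZD3 and ZD12, and 2.03, 1.77 and 1.52 in ZD5, ZD7 and ZD8. The ratio in ZD8 had a 95% interval of 1.38 to 1.67, which lay below the intervals of ZD2, ZD3, ZD12 and ZD5 and overlapped that of ZD7. The groups overlapped, at 2.09 ± 0.0661 in SLS and 1.77 ± 0.254 in LLS (exact permutation p = 0.2, n = 3 each). In contrast, the ratio of miR-205 to the summed family ran from 0.025 in ZD5 to 0.256 in ZD8, a 10.2-fold span (exact permutation p = 0.7, n = 3 each). The ratios were chosen after the data were seen.

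**Figure D3:**
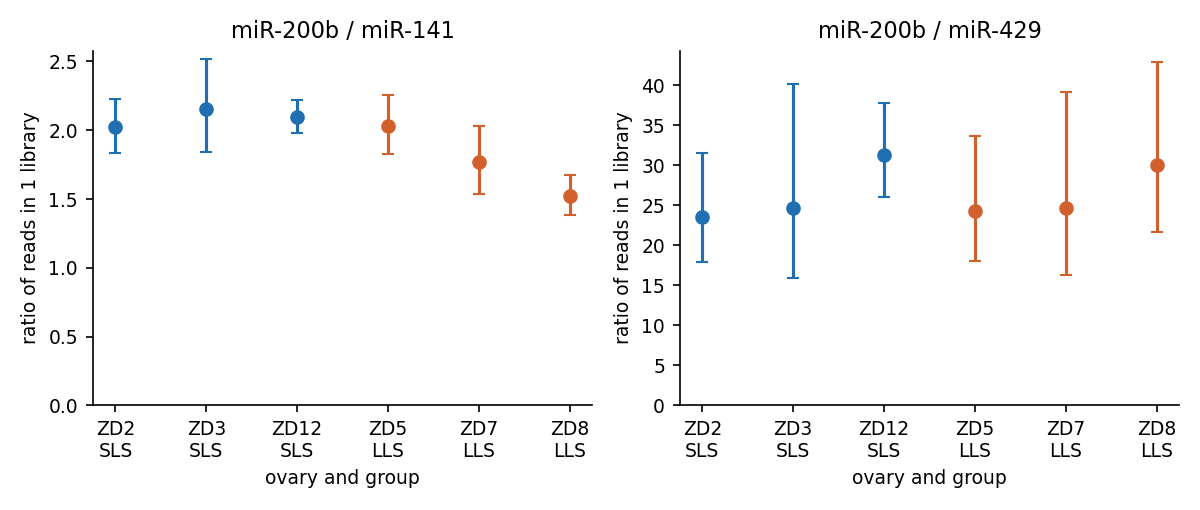
Ratio of miR-200b reads to miR-141 reads (left) and to miR-429 reads (right) within each small RNA library. Points are ovaries in SLS (blue) and LLS (orange), and bars are 95% intervals from the counts. The ratio to miR-141 was lowest in ZD8 (1.52), and the ratio to miR-429 had overlapping intervals in all 6 ovaries.

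Profiles over the ovaries were compared as log2(RPM + 1) centred on the mean of each miRNA. The root mean square difference to the summed family was 0.0585 for miR-200b, 0.116 for miR-141 and 0.195 for miR-429, which are parts of that sum. For miR-205 it was 1.17, above the median of 0.833 over 349 tested miRNAs that were no members. The 5 of these most like the family were miR-135 (0.343), miR-497 (0.360), miR-7138-5p (0.393), miR-143-5p (0.425) and miR-138 (0.435). These values describe 6 libraries and carry no test.

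miR-135 was at 210, 133 and 302 RPM in ZD2, ZD3 and ZD12, and at 157, 89.0 and 241 RPM in ZD5, ZD7 and ZD8. It had the family's order in the first 5 of these ovaries and lay above it in ZD8. Without ZD8 its difference fell to 0.107, and 2 of the 5 most alike miRNAs, miR-135 and miR-497, remained in the list. The miRNA most like miR-205 was miR-192 (0.672), itself an epithelium-linked miRNA, at 77.0, 63.6 and 61.0 RPM in the SLS ovaries and 40.4, 41.2 and 78.1 RPM in the LLS ovaries.

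**Figure D4:**
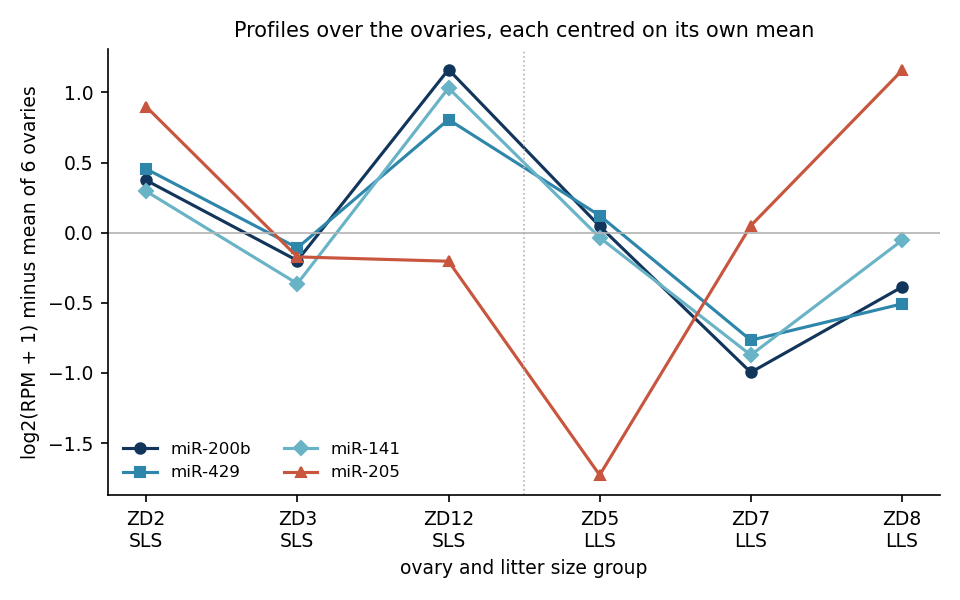
Profiles of the 4 members over the ovaries, as log2(RPM + 1) minus the mean of the 6 ovaries, with SLS left and LLS right of the dotted line. The lines of miR-200b, miR-429 and miR-141 run close together with peaks in ZD12, and that of miR-205 falls to its lowest point in ZD5 and is highest in ZD8.

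Other epithelium-linked miRNAs were taken from a list by name. It gave 12 rows, of which 11 were tested and 0 called, with a median log2 fold change of -0.29. Of the 11 estimates 10 were below 0, as were 181 of all 353 tested miRNAs. This count rested largely on ZD8, without which 4 of 11 were below 0 (median 0.08), beside 132 of 351 tested miRNAs (median 0.16). Without any other single ovary the count was 7 to 11 of 11. miR-34c and miR-375 were the 2 whose groups did not overlap, against the 2.83% given above for all tested miRNAs. miR-34c, of the miR-34 family that p53 induces, was at 47.8, 44.9 and 19.1 RPM in the SLS ovaries and at 14.8, 12.1 and 19.0 RPM in the LLS ovaries. Its log2 fold change was -1.15 (SE 0.52, limma adjusted p 0.997). miR-375, known from pancreatic islets and glandular epithelia, was at 2.05, 1.98 and 1.73 RPM in SLS and 0.973, 1.18 and 0.460 RPM in LLS.

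The cluster of miR-183, miR-96 and miR-182, known from sensory epithelia, did not share the family's order. miR-182 was at 241, 424 and 181.7 RPM in ZD2, ZD3 and ZD12, and at 602, 609 and 26.9 RPM in ZD5, ZD7 and ZD8. miR-183 ran from 7.37 RPM in ZD8 to 266 RPM in ZD7, and miR-96-5p from 7.14 RPM in ZD8 to 234 RPM in ZD7. miR-31 was also lowest in ZD8, at 205.4 RPM against 544 to 911 RPM elsewhere. Among all tested miRNAs, 39.9% were lowest in ZD8.
miR-192, miR-215 and both arms of miR-194a had overlapping groups, and so had miR-194b-5p. miR-194b-3p was not tested and reached at most 0.565 RPM.

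Few reads of the gene libraries lay on the annotated precursor genes. MIR429 was listed at 0 in all gene libraries, and MIR205 had 1 read in ZD5 and 2 reads in ZD8. LOC102159171, which surrounds miR-205, was at 0.106, 0.025 and 0.640 FPKM in ZD2, ZD3 and ZD12, and at 0.0672, 0.117 and 1.11 FPKM in ZD5, ZD7 and ZD8. Its highest ovary was that of miR-205, but ZD12 came second and ZD3 lowest. TTLL10, next to miR-429, reached at most 0.0128 FPKM. PHB2, next to miR-141, was between 32.3 and 64.7 FPKM, and PTPN6 on its other side between 2.62 and 6.86 FPKM.

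The targets were searched for the reverse complement of the seeds in the annotated 3′ UTR of the Sscrofa11.1 genes, on the transcript strand only. The letters were CAGTATT for miR-200b and miR-429, CAGTGTT for miR-141 and ATGAAGG for miR-205. The ZEB1 UTR of 1934 nt held CAGTATT 5 times, where 19.4% of 2165 UTRs of like length (within 20%) held it at all and the mean was 0.223 matches. It also held CAGTGTT 4 times (23.8% of UTRs of like length) and ATGAAGG 1 time (13.9%). The ZEB2 UTR of 4949 nt held CAGTATT 5 times (40.0% of 1129 UTRs of like length, mean 0.556), CAGTGTT 3 times (49.2%) and ATGAAGG 0 times. A match is a description of the letters and not a measured site.

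Some of these places, 4 in all, are shown with the seed match in capitals and the bases that would face the rest of the miRNA before it. The first pair is from ZEB1 and ZEB2 for miR-200b and miR-429, followed by the ZEB1 matches for miR-141 and miR-205, at chr10:42214537-42214565, chr15:7626770-7626798, chr10:42214914-42214942 and chr10:42214992-42215020, all on the plus strand.
ZEB1 for miR-200b: tctggtgtcgtttcactttatCAGTATTa
ZEB2 for miR-200b: ggtgcccgcactaccatacatCAGTATTt
ZEB1 for miR-141: agttctgagtgcagggacgaaCAGTGTTa
ZEB1 for miR-205: ctgagtatgtggtaaacaaatATGAAGGa

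Among other known targets, QKI, an RNA-binding splicing factor, held CAGTATT 6 times in a UTR of 10623 nt, where 65.7% of 169 UTRs of like length held it. SEC23A, of the coat of transport vesicles, held it 3 times (13.1% of 2242). WASF3 held it 2 times, CFL2, FN1 and ETS1 1 time each and JAG1 0 times. ERBB3, a receptor of the EGF receptor family and a known target of miR-205, held ATGAAGG 1 time (6.89% of 2177). Over all 18167 UTRs, 14.6% held CAGTATT, 17.7% CAGTGTT and 10.7% ATGAAGG.

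ZEB1 was at 5.77, 8.72 and 8.11 FPKM in ZD2, ZD3 and ZD12, and at 6.29, 6.05 and 18.3 FPKM in ZD5, ZD7 and ZD8. ZD8 was highest and the other ovaries lay close together, with a log2 fold change of 0.24 (SE 0.42, limma adjusted p 0.999). ZEB2 was at 30.8, 67.6 and 39.7 FPKM in the SLS ovaries and at 58.1, 44.3 and 31.5 FPKM in the LLS ovaries. It was lowest in ZD2 and ZD8, and its log2 fold change was -0.01 (SE 0.37, limma adjusted p 0.999). Neither gene was lowest in ZD12 or highest in ZD7, the ovaries with the most and the least of the miR-200 family. Any relation of either gene to the family was not tested.

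Of the 9 known targets of miR-200, 9 were tested and 0 called. Among these, 5 were lower in LLS, beside 5814 of all 12260 tested genes. Their median log2 fold change was -0.01, where the median over all tested genes was 0.02. For genes limma called 0 of 12260 (0%), while for 216 the unadjusted p was under 0.05. FN1, the matrix protein fibronectin, was the most abundant target, at 50.6 to 190 FPKM. CFL2, which severs actin filaments, was at 20.2 to 62.4 FPKM. Of the 5 known targets of miR-205, 4 were tested and 0 called. INPPL1, a lipid phosphatase, was at 33.4 to 54.5 FPKM. ERBB3 was at 0.624, 0.564 and 1.74 FPKM in SLS and 0.522, 0.266 and 4.82 FPKM in LLS, and was below the limit of testing. Of the 4 known targets of miR-203, 3 were tested (SOCS3, ABL1 and SNAI2) and 0 called.

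Of 25 genes of epithelial identity, 11 were tested and 0 called, and 8 stayed below 1 FPKM in every ovary. Their summed FPKM was between 37.2 and 87.6 in SLS and between 53.4 and 81.2 in LLS. The median log2 fold change of the tested genes was -0.07, and 8 of 11 were lower in LLS. Of all 12260 tested genes, 5814 were lower in LLS, with a median of 0.02. ZD8 was the highest ovary for 4 of the 11 tested genes of the list, and for 44.6% of all tested genes. With the untested genes, many of them below 1 FPKM, this count was 15 of 25.

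EPCAM, a cell adhesion molecule of epithelia, was at 0.312, 0.339 and 1.28 FPKM in ZD2, ZD3 and ZD12, and at 27.8, 9.73 and 2.31 FPKM in ZD5, ZD7 and ZD8. All LLS ovaries lay above all SLS ovaries, a separation found for 628 of 12260 tested genes (5.12%). The log2 fold change was 2.66 (SE 0.70) with an adjusted p of 0.999 in limma. Without ZD8, EPCAM was among 20 genes called of 11985 tested (0.167%), with a limma adjusted p of 0.0221. With array weights it was among 13 called of 12260 (0.106%), with an adjusted p of 0.0250. No other tested gene of the list had groups that did not overlap. Of the untested genes of the list, KRT18 and GRHL1 had such groups, in opposite directions, and both are named after their values were seen. KRT18, the partner of KRT8 in keratin filaments, was at 0.237 to 6.30 FPKM in SLS and 0 to 0.151 FPKM in LLS. GRHL1, a relative of GRHL2, was at 0.0276 to 0.0630 FPKM in SLS and 0.182 to 0.583 FPKM in LLS. KRT19, another keratin of simple epithelia, had overlapping groups, at 16.4, 2.98 and 5.67 FPKM in SLS and 0.735, 1.01 and 5.21 FPKM in LLS, with a log2 fold change of -1.47 (SE 0.64, limma adjusted p 0.999).

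CDH1, which encodes E-cadherin, was at 3.69, 1.16 and 2.83 FPKM in the SLS ovaries and 1.48, 0.816 and 6.10 FPKM in the LLS ovaries, with a log2 fold change of -0.10 (SE 0.54, limma adjusted p 0.999). Like the family it was lowest in ZD7, but it was highest in ZD8. ESRP1, an epithelial splicing regulator, was at 0.145, 0.0953 and 1.23 FPKM in SLS and 0.225, 0.411 and 6.03 FPKM in LLS. GRHL2, a transcription factor of epithelial cells, was at 0.0751, 0.0182 and 0.455 FPKM in SLS and 0.119, 0.234 and 1.79 FPKM in LLS. Both were highest in ZD8 and next in ZD12, the ovary with most miR-200. ESRP2 reached at most 0.441 FPKM and OVOL2, a repressor of ZEB1, at most 0.657 FPKM, again in ZD8.

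The 3 most abundant tested genes of the list were MAL2, KRT8 and CDH3. MAL2, of apical transport, was at 9.42, 15.8 and 12.3 FPKM in SLS and 30.8, 18.4 and 1.25 FPKM in LLS, lowest in ZD8. KRT8, a keratin of simple epithelia, was at 27.4, 2.67 and 11.2 FPKM in SLS and 1.77, 2.15 and 12.1 FPKM in LLS. CDH3, which encodes P-cadherin, was at 7.16, 3.69 and 8.58 FPKM in SLS and 2.70, 3.21 and 23.6 FPKM in LLS. The genes of the list therefore had no common order over the ovaries.

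**Figure D5:**
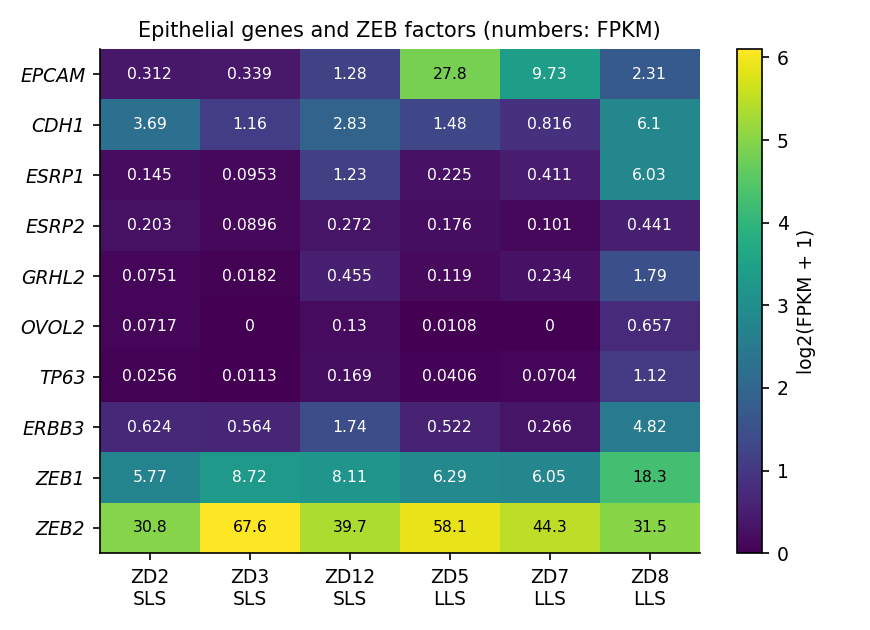
FPKM of epithelial genes, of the miR-205 target ERBB3 and of ZEB1 and ZEB2 in the 6 ovaries. Colours give log2(FPKM + 1) and the printed numbers FPKM. EPCAM was higher in all LLS than in all SLS ovaries, while CDH1, ESRP1, ESRP2, GRHL2, OVOL2, TP63, ERBB3 and ZEB1 were highest in ZD8.

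Genes of stratified epithelium, where miR-205 is best known, were described in the same way. Of 10 genes, 9 were in the table, 2 were tested and 0 called, and 4 stayed below 1 FPKM in every ovary. The list summed to 7.56, 8.71 and 15.7 FPKM in ZD2, ZD3 and ZD12, and to 88.0, 22.8 and 14.4 FPKM in ZD5, ZD7 and ZD8, and most of each sum except that of ZD8 was PERP. TP63, the regulator of basal cells, was at 0.0256, 0.0113 and 0.169 FPKM in SLS and 0.0406, 0.0704 and 1.12 FPKM in LLS, and like miR-205 it was highest in ZD8. PERP, of desmosomes, was at 85.2 FPKM in ZD5, the ovary with the least miR-205, and between 6.26 and 21.6 FPKM elsewhere. DSP, the desmosomal plaque protein, was between 0.612 and 3.31 FPKM.

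Other sources of epithelium were checked by their markers. Of 6 ciliated cell genes 1 was tested (TPPP3, 1.29 to 5.28 FPKM), and the list summed to 3.63 to 4.89 FPKM in SLS and 4.55 to 5.90 FPKM in LLS. FOXJ1, the regulator of motile cilia, reached at most 0.107 FPKM, RSPH1 0.181 FPKM and PIFO 0.0134 FPKM. DNAH9, a dynein heavy chain of cilia, was higher, at 0.349 to 1.23 FPKM in SLS and at 0.440, 0.364 and 3.57 FPKM in ZD5, ZD7 and ZD8. CCDC39 was between 0.138 and 0.932 FPKM, also highest in ZD8. Of 3 genes of oviduct secretory cells 2 were in the table, with PAX2 listed at 0 everywhere and a summed level of 0.131 to 0.653 FPKM in SLS and 0.130 to 1.49 FPKM in LLS. Of 5 genes of mesothelium and ovarian surface, 4 were in the table and 1 was tested. This was WT1, which granulosa cells also express, at 13.1, 13.6 and 26.6 FPKM in SLS and 10.4, 12.6 and 88.6 FPKM in LLS. UPK3B reached at most 0.152 FPKM.

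The mesenchymal side was abundant in all ovaries. Of 9 genes for mesenchymal proteins and for the transcription factors of the epithelial-mesenchymal transition, 9 were tested and 0 called, with a summed level of 1070 to 1387 FPKM in SLS and 762 to 995 FPKM in LLS. Most of this was VIM, which encodes vimentin, at 824 to 1233 FPKM in SLS and 509 to 847 FPKM in LLS. The log2 fold change of VIM was -0.53 (SE 0.54, limma adjusted p 0.999).

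Other cell types of the ovary were described by the sums of their lists. The summed luteal genes were between 9167 and 10808 FPKM in SLS and between 123 and 12191 FPKM in LLS, with the lowest value in ZD8. LHCGR, the receptor of luteinizing hormone, was the 1 of 6 luteal genes whose groups did not overlap (5.12% of all tested genes), at 27.8, 70.5 and 46.1 FPKM in SLS and 22.5, 24.2 and 10.4 FPKM in LLS, with a log2 fold change of -1.28 (SE 0.43, limma adjusted p 0.999). The 5 granulosa genes summed to 384 to 768 FPKM in SLS and 127 to 296 FPKM in LLS. Most of that sum was INHA, the inhibin alpha subunit, at 553, 376 and 726 FPKM in ZD2, ZD3 and ZD12, and at 285, 162 and 66.4 FPKM in ZD5, ZD7 and ZD8. INHA was the 1 of 4 tested granulosa genes whose groups did not overlap (5.12% of all tested genes), with a log2 fold change of -1.86 (SE 0.58, limma adjusted p 0.999). The other granulosa genes did not follow INHA. FOXL2 was highest in ZD8 (37.8 FPKM) and next in ZD12 (30.6 FPKM), with a log2 fold change of -0.29. FSHR, the receptor of follicle-stimulating hormone, was at 0.263, 0.202 and 4.50 FPKM in ZD2, ZD3 and ZD12, and at 2.68, 1.11 and 10.8 FPKM in ZD5, ZD7 and ZD8, with a log2 fold change of 1.15 (SE 0.76, limma adjusted p 0.999). AMH, the anti-Müllerian hormone of small follicles, was likewise highest in ZD8 (12.0 FPKM), with a log2 fold change of 0.96. Of the 4 tested granulosa genes, 2 had estimates below 0 and 2 above. The part of granulosa cells in the levels of the family was not tested.

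Theca genes summed to 13.9 to 74.4 FPKM in SLS and 9.31 to 415 FPKM in LLS, and oocyte genes to 6.17 to 19.7 FPKM in SLS and 7.74 to 99.0 FPKM in LLS, each highest in ZD8. Stroma genes summed to 1380 to 3986 FPKM in SLS and 1131 to 2456 FPKM in LLS, endothelial genes to 193 to 243 and 84.9 to 269 FPKM, and immune genes to 5.17 to 8.46 and 5.07 to 13.0 FPKM. PECAM1 was the 1 of 3 endothelial genes whose groups did not overlap (5.12% of all tested genes), at 87.7 to 105 FPKM in SLS and 25.4 to 86.0 FPKM in LLS, with a log2 fold change of -0.96 (SE 0.43, limma adjusted p 0.999). In these 5 lists and in the luteal and granulosa lists, 0 genes were called.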

How the data were processed

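Small RNA and total RNA were measured in 6 ovaries, 3 per group, with 1 library of each kind per ovary. For the gene table, the authors filtered reads, mapped them to Sscrofa11.1 with HISAT2 and deposited FPKM values. For the miRNA table, per the labels, reads were processed with BWA, and the deposited values are reads scaled to the library total (RPM). The program that counted reads and the miRNA annotation are not given in the sources used here. All columns of values were used. The columns of the miRNA table carry the ovary names, which the labels give both to a sample and to a sample marked rep. These columns were taken as the rep samples, an inference from the naming of the deposited values. Both samples of an ovary have the same litter size group. miRNA and gene values were matched by ovary name.

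RPM gave whole reads for 2618 of 2618 values above 0 (100%, tolerance 0.001 reads), and FPKM for 23477 of 23546 genes (99.7%). Of miRNAs, 3 reads were 0.304 to 0.848 RPM. R 4.3.3 with limma 3.58.1 was used on log2(value + 1) with a trended variance, after a filter that kept rows reaching 1 RPM or FPKM in 3 or more libraries, with Benjamini-Hochberg adjustment over all of them. edgeR 4.0.16 and DESeq2 1.42.0 on the recovered miRNA reads were alternatives, and both called 0 of 353 miRNAs. Other alternatives were the pseudocount, the filter, median centring or an equal FPKM sum, array weights and leaving out each ovary. Scripts were tested on simulated data. Sequences of the genome and its UTRs came from RefSeq (Sscrofa11.1).

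Named were all members, the 5 miRNAs most like the family, a list of epithelium-linked miRNAs, 10 genes (ZEB1, ZEB2, CDH1, EPCAM, ESRP1, ESRP2, GRHL2, OVOL2, TP63, ERBB3) and genes among the 3 most abundant tested ones of each list (such as STAR, INHA, FOXL2, AMH, GDF9 and PECAM1), not all of which are named. Other names (MIR205, neighbours of the members, seed targets, FOXJ1, RSPH1, PIFO, DNAH9, CCDC39, LHCGR, PAX2, UPK3B, CYP19A1, ZP2, FSHR, KRT18, KRT19, GRHL1, miR-192 as most like miR-205) were chosen after their values were seen. The members and lists were chosen with earlier results of these data known. All were left ovaries, so each came from another sow.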

Additional observations from a re-analysis of the deposited data

How the results depend on the processing

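The log2 fold changes of miR-200b, miR-429 and miR-141 kept their direction in 13 of 13 alternatives, and none passed the test. Leaving out 1 ovary gave -1.21 to -0.53, -1.02 to -0.56 and -0.98 to -0.29, and other settings gave -1.02 to -0.43, -0.99 to -0.34 and -0.75 to -0.28, with adjusted p from 0.944 to 1. For miR-205 the direction turned in 4 of 13, with 0.11 in edgeR, 0.17 in DESeq2, 0.01 without ZD2 and 0.43 without ZD5, and leaving out 1 ovary gave -1.01 to 0.43. The cause was not tested. In each alternative 0 miRNAs were called. Of the 55 epithelial, mesenchymal and target genes, 32 were tested and 0 called. In the miRNA fit, array weights gave ZD8 a weight of 0.245. With array weights in the gene fit, 1 of 32 (EPCAM) was called, beside 13 of 12260 genes in all (0.106%). Leaving out 1 ovary gave 0 to 1, with 1 of 30 without ZD8 (EPCAM), beside 20 of 11985 genes in all (0.167%). Without ZD8, 2 of the 5 miRNAs most like the family were shared. No paired analysis was possible because each ovary came from a different sow. Depth limits miR-429 most, at 21 to 119 reads.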
